A study of Homo sapiens with 18 samples.

Results

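The 22 mitochondrial tRNAs were followed across 18 small RNA libraries from HEK293T cells, an established human embryonic kidney line. They are all rows of the deposited count table that lie on the mitochondrial chromosome and have an RNA type beginning with tRNA, 22 of 175935 rows. Cells had been transfected for 48 h, using RNAiMAX, with an siRNA against SSB (siSSB) or with a scramble siRNA (control). SSB encodes La, a chaperone of newly made small RNAs. RNA was taken from whole cells (total), from the nuclear fraction (nuc) or from the cytoplasmic fraction (cyto), giving the 6 groups control_total, siSSB_total, control_nuc, siSSB_nuc, control_cyto and siSSB_cyto with 3 libraries each. Every library, controls included, was titled as prepared with PNK. The study describes the 3 libraries of a group as biological replicates of 1 experiment, and p-values measure the spread between these libraries. The level of SSB itself and the markers of the cell line were not checked, because the table used here lists noncoding RNAs.

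Column totals were 21565995 to 44712500 counts in cyto, 98928007 to 158244813 in nuc and 47662310 to 89632050 in total libraries. The 22 mitochondrial tRNA windows together held 89944 to 154943 counts in cyto libraries, 11949 to 22475 in nuc and 39884 to 69607 in total. All 22 had counts above 0 in all 18 libraries. The lowest single count was 34 in nuc, 133 in total and 333 in cyto, so the nuclear values rest on the fewest reads. Y RNA counts per snoRNA count, a check of the fractions, were 0.915 to 1.54 in cyto libraries and 0.00118 to 0.00271 in nuc libraries. TMM scaling factors set over all libraries ran from 0.211 to 0.407 in nuc and from 2.97 to 4.63 in cyto, and levels set across fractions therefore depend on that scaling.

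Human mitochondrial DNA encodes 1 complete set of tRNAs for the organelle's own ribosomes. The mitochondrial RNA polymerase POLRMT transcribes each strand as long precursors in which tRNAs punctuate the rRNAs and mRNAs, and mitochondrial RNase P and ELAC2 cut the tRNAs out at their 5′ and 3′ ends. Nuclear tRNAs are instead made by RNA polymerase III, whose transcripts end in a run of uridines that La binds. Mitochondrial tRNAs thus share the amino acids and the fold of nuclear tRNAs but not their polymerase. The mitochondrial tRNA for valine has a further role, as a structural part of the large subunit of the human mitochondrial ribosome.

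By the strand given in the table, 14 members are encoded with the heavy-strand genes (MT-TF, MT-TV, MT-TL1, MT-TI, MT-TM, MT-TW, MT-TD, MT-TK, MT-TG, MT-TR, MT-TH, MT-TS2, MT-TL2 and MT-TT). The other 8 are light-strand genes (MT-TQ, MT-TA, MT-TN, MT-TC, MT-TY, MT-TS1, MT-TE and MT-TP). They cover 20 amino acids, with 2 members each for leucine and serine. Each counting window ran 25 nt beyond both ends of the GENCODE 44 gene. The genes on which the results turn are printed 5′ to 3′ from the hg38 sequence, on their coding strand, with the anticodon in capitals. No anticodon was located by the search in MT-TS2, known to lack a D-arm, so it carries no capitals. The first 4 had the highest levels, MT-TT and MT-TP had the largest nuclear against cytoplasmic differences, and MT-TK had the largest knockdown difference in total RNA.
MT-TV: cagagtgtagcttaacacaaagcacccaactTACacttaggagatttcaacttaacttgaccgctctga
MT-TH: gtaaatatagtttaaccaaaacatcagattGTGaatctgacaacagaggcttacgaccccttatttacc
MT-TS2: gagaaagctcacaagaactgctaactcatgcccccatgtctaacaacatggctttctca
MT-TE: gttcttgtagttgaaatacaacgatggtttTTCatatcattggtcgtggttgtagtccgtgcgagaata
MT-TT: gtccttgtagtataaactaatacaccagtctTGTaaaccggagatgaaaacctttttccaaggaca
MT-TP: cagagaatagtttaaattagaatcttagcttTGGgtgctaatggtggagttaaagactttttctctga
MT-TK: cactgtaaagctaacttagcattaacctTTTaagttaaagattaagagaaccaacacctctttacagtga

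MT-TV lies at chrM:1602-1670 between the genes of the small (MT-RNR1) and large (MT-RNR2) mitochondrial rRNA. MT-TH is at chrM:12138-12206 and MT-TS2 follows it directly at chrM:12207-12265. MT-TE is at chrM:14674-14742 on the light strand. MT-TT at chrM:15888-15953 and the light-strand MT-TP at chrM:15956-16023 face each other beside the control region, and MT-TK is at chrM:8295-8364. Each of these positions is the whole noncoding exon of its gene.

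Neighbouring windows share reads. The windows of 15 members overlapped that of another member. The use of strand in the counting was not given in the sources used here, so reads from opposite strands cannot be told apart. Windows also overlapped rows that are not tRNA. Those of MT-TF and MT-TV overlapped the MT-RNR1 row, and those of MT-TV and MT-TL1 the MT-RNR2 row. In control_cyto replicate 1, MT-RNR1 held 39028 counts and MT-RNR2 50270. MT-TF, MT-TV and MT-TL1 held 3262, 7241 and 3552. How many rRNA reads these windows hold was not tested, apart from the bound given below for MT-TV. MT-TH and MT-TS2 shared 50 nt (chrM:12182-12231), and the MT-TH count was 68.5% to 95.7% of the MT-TS2 count of the same library. Their values should be read as a pair. Copies of mitochondrial DNA in the nuclear genome may also share reads. How reads that map to several places were counted was not given, so the number of shared reads is unknown. Here 16 members had a nuclear copy with at most 2 mismatches, 7 of them an identical one. Rows of tRNA type over such copies held counts equal to 91.3% of the count of MT-TC, 86.5% of MT-TM, 85.9% of MT-TY and 75.1% of MT-TQ. The same share was 4.13% for MT-TV and 1.73% for MT-TH. MT-TE, MT-TW, MT-TA, MT-TN, MT-TS1, MT-TD and MT-TK had such copies, but no row of tRNA type lay over them. Their share of reads from copies could therefore not be measured. MT-TF, MT-TL1, MT-TG, MT-TS2, MT-TT and MT-TP had no such copy.

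The letters TTTT, the DNA form of a short uridine run, occurred on the coding strand in the 25 nt after the 3′ end of 6 of 22 mitochondrial tRNAs (27.3%; MT-TC, MT-TY, MT-TS1, MT-TG, MT-TS2 and MT-TP). The same search found them after 389 of 499 nuclear tRNA rows (78.0%). A match is a description of the letters only.

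The level of the members differed widely. On a common TMM scale over the 18 libraries, expressed as CPM (the count scaled by the effective library size) per 100 nt of window, the 4 highest means were 139 for MT-TE (glutamate), 138 for MT-TS2 (serine), 114 for MT-TH (histidine) and 97.2 for MT-TV (valine). The lowest were 4.04 for MT-TR (arginine), 2.76 for MT-TW (tryptophan) and 2.73 for MT-TI (isoleucine). MT-TP, MT-TL2, MT-TL1 and MT-TT came next to the top, at 36.4, 32.98, 32.5 and 20.4. Within a group the highest member stood 55.1 to 113 times above the lowest. Most neighbours in the order could not be separated, since the ranges of the 3 libraries were apart in only 2 to 6 of 21 neighbouring pairs per group.

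MT-TE reached a level of 272, 299 and 147 CPM per 100 nt in the control_total libraries and 96.7, 106 and 191 in siSSB_total. In cyto its levels were 189, 122 and 179 (control) and 129, 224 and 206 (siSSB), and in nuc 111, 42.3 and 40.4 (control) and 82.1, 37.0 and 31.6 (siSSB). Its replicate 1 was the highest nuclear library with either siRNA. MT-TE led total RNA in both groups, but in siSSB_total its range overlapped that of MT-TS2.

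MT-TS2 led cytoplasmic RNA by its mean, with levels of 231, 216 and 127 CPM per 100 nt in control_cyto and 301, 223 and 268 in siSSB_cyto. Its levels were 133, 121 and 113 in control_total, 114, 142 and 114 in siSSB_total, 87.1, 70.7 and 50.3 in control_nuc and 50.4, 49.3 and 68.7 in siSSB_nuc. MT-TH ran just below it, at 200.3, 189 and 104 in control_cyto, 263, 186 and 232 in siSSB_cyto, 83.3, 90.8 and 89.9 in control_total, 93.2, 119.9 and 86.96 in siSSB_total, 74.04, 58.5 and 42.3 in control_nuc and 41.6, 42.5 and 58.2 in siSSB_nuc. The cyto range lay above the nuc range for both members with either siRNA.

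MT-TV ordered the fractions the other way. Its levels were 173, 173 and 115 CPM per 100 nt in control_nuc and 145, 106 and 140 in siSSB_nuc, against 66.6, 59.9 and 43.0 in control_cyto and 60.1, 71.3 and 76.7 in siSSB_cyto. It was the highest member of both nuclear groups, with a range apart from that of the next member, MT-TS2, and the fourth highest of both cytoplasmic groups. Its control_total levels spread most, at 189, 106 and 51.7, beside 45.2, 46.6 and 81.4 in siSSB_total.

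At the low end, MT-TI had levels of 3.21, 2.92 and 3.69 CPM per 100 nt in control_cyto, 3.06, 4.36 and 3.63 in siSSB_cyto, 1.96, 1.53 and 3.57 in control_nuc and 1.79, 2.11 and 2.11 in siSSB_nuc. Its total levels were 3.24, 2.49 and 2.39 (control) and 2.48, 2.29 and 2.38 (siSSB). MT-TW had 3.36, 3.25 and 4.72 in control_cyto, 3.43, 5.88 and 3.24 in siSSB_cyto, 1.57, 1.22 and 3.82 in control_nuc, 0.854, 2.71 and 2.07 in siSSB_nuc, 2.09, 1.87 and 2.37 in control_total and 2.78, 2.47 and 1.91 in siSSB_total. The ranges of MT-TI and MT-TW overlapped in every group except control_total. MT-TR had 4.996, 4.82 and 6.62 in control_cyto, 5.01, 7.65 and 5.87 in siSSB_cyto, 2.14, 2.17 and 4.47 in control_nuc, 1.88, 2.397 and 1.86 in siSSB_nuc, 4.22, 3.86 and 3.54 in control_total and 2.96, 4.58 and 3.69 in siSSB_total. For MT-TI, rows over its nuclear copy held counts equal to 45.9% of its own, and for MT-TR 35.4%.

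**Figure D1:**
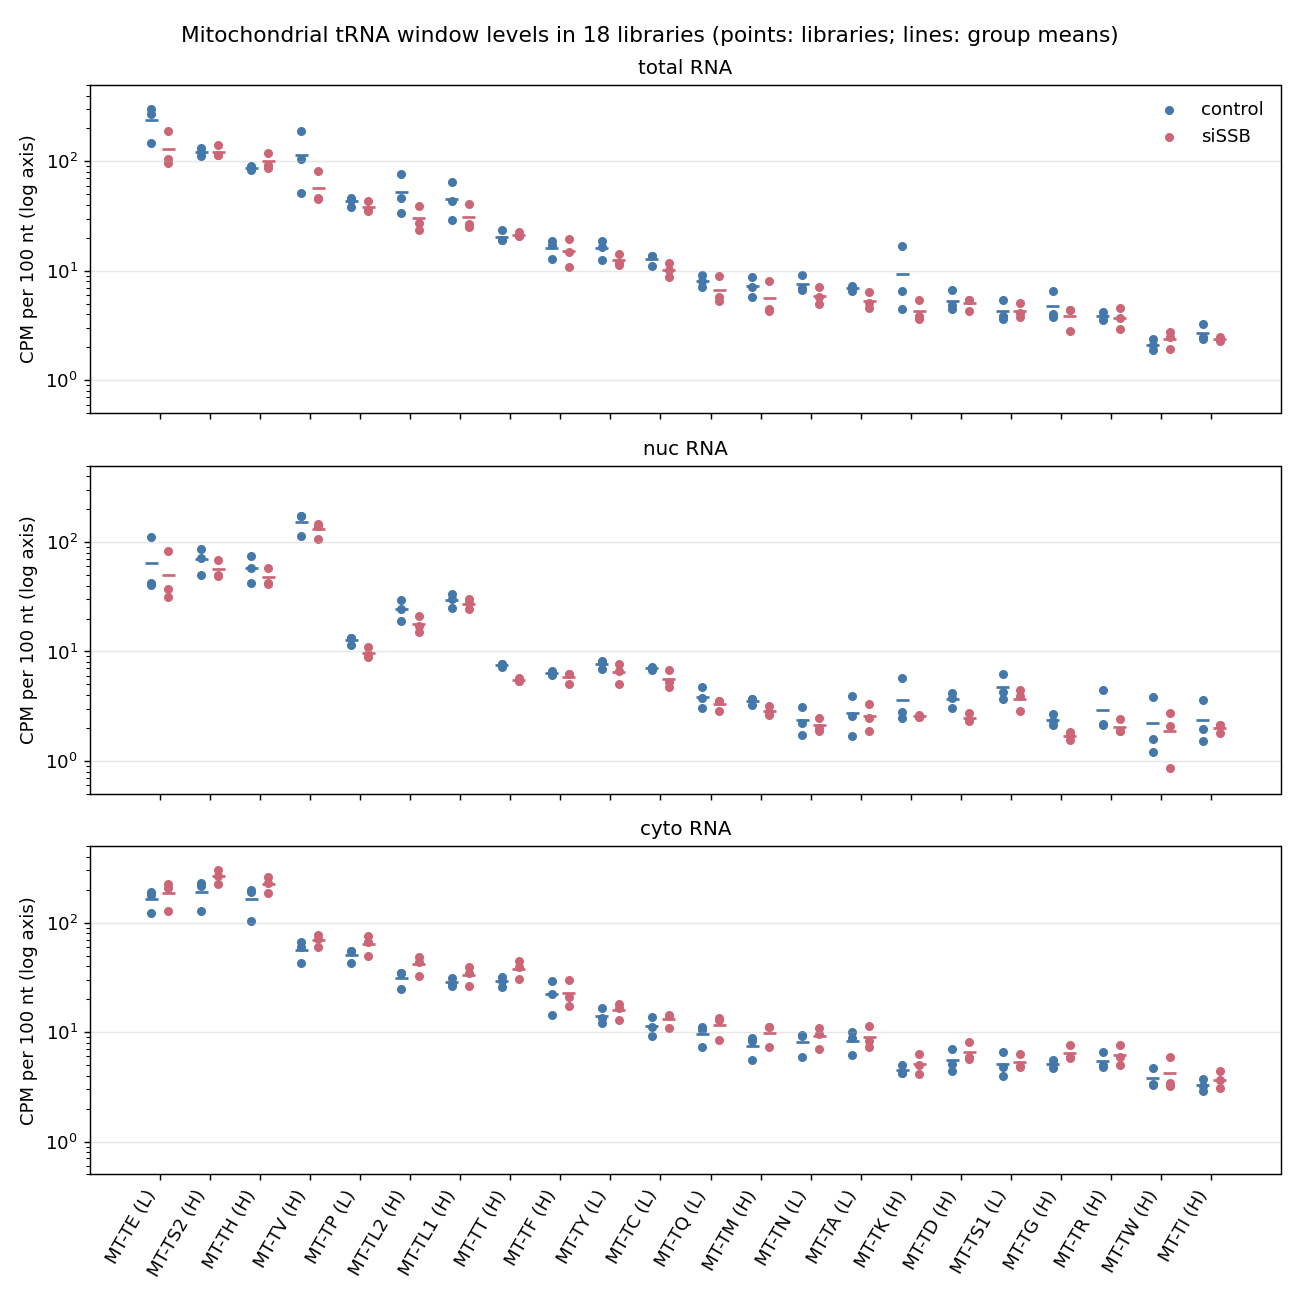
Level of each mitochondrial tRNA window (CPM per 100 nt, log axis) in total, nuc and cyto RNA, ordered by the mean over 18 libraries; points are libraries, short lines group means, blue control and red siSSB, H and L the heavy-strand and light-strand genes. MT-TE, MT-TS2, MT-TH and MT-TV stand highest, and MT-TV is above all other members only in nuc RNA.

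The windows of the leucine isoacceptors were alike in level and those of serine were not. MT-TL1, which reads the UUR leucine codons, had a mean level of 32.5 CPM per 100 nt and MT-TL2, for the CUN codons, 32.98. The ranges of both overlapped wherever they were neighbours in the order, except in siSSB_nuc, where MT-TL1 had 30.2, 24.4 and 27.6 and MT-TL2 14.97, 21.1 and 17.2. MT-TS1, a light-strand gene for the UCN serine codons, had a mean level of 4.58, and MT-TS2, a heavy-strand gene for the AGY codons, 138. In control_cyto MT-TS1 had 4.76, 4.002 and 6.52, which do not overlap the MT-TS2 levels given above. Part of the MT-TS2 count is shared with MT-TH, whose count was 94.5%, 95.7% and 89.0% of it in control_cyto. Most MT-TS2 counts may thus be MT-TH reads. How much of the serine difference they make up was not tested.

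With all 22 windows summed, light-strand genes carried the smaller part of the counts in every library. Their share of mitochondrial tRNA counts was 32.4%, 26.5% and 41.8% in control_cyto, 23.6%, 35.8% and 31.3% in siSSB_cyto, 26.7%, 16.8% and 22.9% in control_nuc, 26.9%, 20.8% and 16.8% in siSSB_nuc, 37.9%, 45.8% and 38.8% in control_total and 32.9%, 30.3% and 40.6% in siSSB_total. Ranges overlapped between control and siSSB in all 3 kinds of RNA. MT-TE made up much of this share: without it the means were between 9.94% (siSSB_nuc) and 17.3% (siSSB_total). When only 14 windows that do not overlap were summed, the means were higher, from 23.7% in siSSB_nuc to 49.96% in control_total. Light-strand genes then held the larger part in 3 libraries, at 55.5% in control_total replicate 2, 53.8% in control_cyto replicate 3 and 50.1% in siSSB_total replicate 3.

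In total RNA no mitochondrial tRNA passed the test of siSSB against control. By edgeR's quasi-likelihood test, 0 of 22 members had an adjusted p under 0.05, where 1.34% of the 13883 features tested did (186). At an unadjusted p under 0.05 there were 4 members, beside 16.6% of all features, and DESeq2 also called 0. Log2 fold changes ran from -1.13 to 0.21 with a median of -0.29 (heavy strand -0.13, light strand -0.34), beside a median of -0.01 over all features. The direction of this median depends on the scale: it was 0.31 with library size alone, 0.49 with the snoRNA total, 0.48 with the nuclear tRNA total and -0.81 with the miRNA total, where 7 members were called lower. The median of all features moved with it, to 0.55, 0.72, 0.74 and -0.56, and 5 to 7 of 22 members lay above that median in these settings. In bulk libraries, fewer cells of a kind and less RNA per cell cannot be told apart. Control and siSSB ranges were apart for 2 members, MT-TA (alanine) and MT-TC (cysteine), both lower in siSSB_total, where 9.05% of all features were lower without overlap.

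The smallest p in total RNA belonged to MT-TK (lysine) and MT-TV. MT-TK had levels of 16.95, 6.58 and 4.48 CPM per 100 nt in control_total and 3.61, 3.86 and 5.42 in siSSB_total, and the ranges overlapped. Its log2 fold change was -1.13 ± 0.42 (SE, n = 3 per group, edgeR quasi-likelihood adjusted p = 0.189). It rests on control_total replicate 1: without that library it was -0.34 and without control_total replicate 3 it was -1.498 (adjusted p = 0.0453). MT-TV, with the levels given above, had -1.02 ± 0.44 (adjusted p = 0.265), and -0.44 without control_total replicate 1.

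In nuclear RNA 0 of 22 members had an adjusted p under 0.05 for siSSB against control (edgeR quasi-likelihood), where 0.378% of 6873 features passed (26). None had an unadjusted p under 0.05, beside 14% of all features, and DESeq2 called 0. Log2 fold changes ran from -0.42 to 0.07, with a median of -0.14 for the members and 0.08 for all features. With library size alone or the nuclear tRNA total 21 of 22 were above 0, and 1 was above the median of all features. MT-TG, MT-TT and MT-TP were lower in siSSB_nuc without overlap, 3 of 22, where 9.06% of all features were.

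MT-TD (aspartate) and MT-TG (glycine) had the smallest p in nuclear RNA. MT-TD had levels of 3.07, 3.75 and 4.20 CPM per 100 nt in control_nuc and 2.36, 2.71 and 2.32 in siSSB_nuc, with a log2 fold change of -0.42 ± 0.28 (adjusted p = 0.48, edgeR). MT-TG had 2.31, 2.14 and 2.69 in control_nuc and 1.71, 1.56 and 1.84 in siSSB_nuc, with -0.33 ± 0.27 (adjusted p = 0.551, edgeR). On the scale of these levels the MT-TD groups were also apart, but not on the scale of the 6 nuclear libraries fitted alone.

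In cytoplasmic RNA the fold changes of all 22 members were above 0, from 0.02 to 0.46, with a median of 0.21 beside 0.01 over all features. None passed the test (0 of 22, where 0.291% of 18921 features passed, 55 in all), none had an unadjusted p under 0.05, beside 6.66% of all features, and DESeq2 called 0. All members are read from the same 6 libraries, so a shared direction is not a set of separate observations. The values stayed above the median of all features for 21 or all 22 members under each other scale tried. Without siSSB_cyto replicate 2, 19 members were above 0 and 18 above that median. Without control_cyto replicate 2 the numbers were 20 and 18. On the scale of the 6 cytoplasmic libraries fitted alone, ranges were apart for 5 members, all higher in siSSB_cyto (MT-TV, MT-TG, MT-TL2, MT-TT and MT-TP), where 5.96% of all features were higher without overlap. On the scale of the levels over all 18 libraries, MT-TG alone of these 5 stayed apart. MT-TT and MT-TP share a window edge.

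MT-TL2 and MT-TT (threonine) had the smallest p in cytoplasmic RNA. MT-TL2 had levels of 34.8, 24.9 and 34.7 CPM per 100 nt in control_cyto and 32.5, 48.7 and 43.6 in siSSB_cyto on the scale of all libraries, and a log2 fold change of 0.40 ± 0.24 (adjusted p = 0.835, edgeR). MT-TT had 32.1, 25.8 and 29.5 in control_cyto and 30.5, 44.6 and 39.1 in siSSB_cyto, and 0.37 ± 0.23 (adjusted p = 0.835, edgeR). On this common scale siSSB_cyto replicate 1 lay within the control range for both, as it did for MT-TV and MT-TP.

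**Figure D2:**
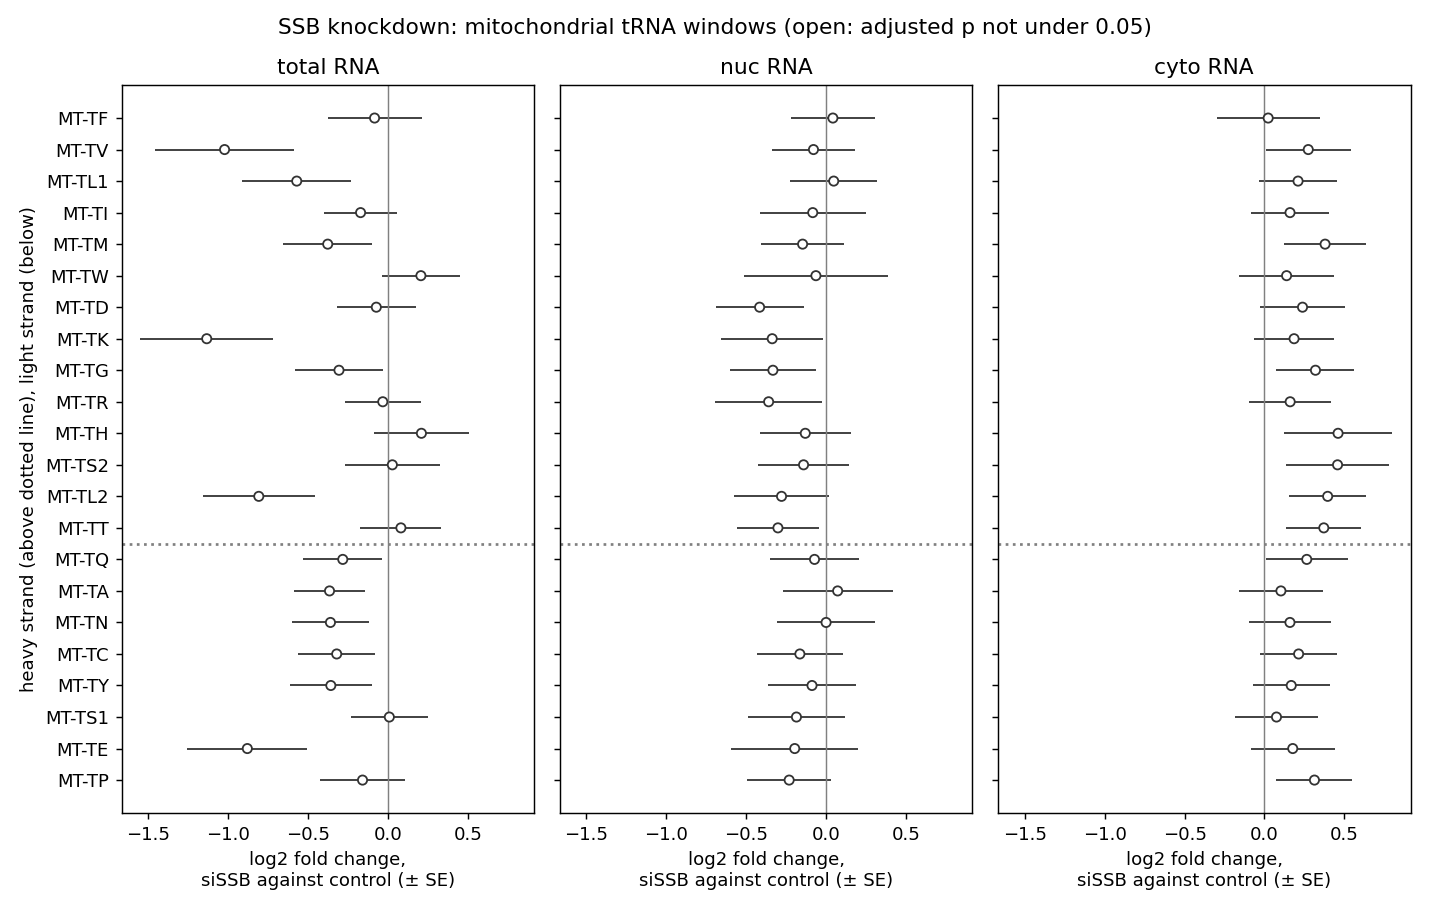
Log2 fold change of siSSB against control (± SE of the fit, n = 3 libraries per group) for each member in total, nuc and cyto RNA, with heavy-strand genes above and light-strand genes below the dotted line; open points did not reach an adjusted p under 0.05. All points are open, and in cyto RNA all 22 lie above 0.

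Of the 24 other rows of the mitochondrial chromosome, 0 were called for the knockdown in total, nuc or cyto RNA, with medians of 0.01, -0.04 and 0.17. For the RNA classes that La is known to bind, the summed counts on the same TMM scales moved by log2 ratios, given here with no test, of -2.57 (total), -1.85 (nuc) and -2.23 (cyto) for vault RNA and -0.74, -0.36 and -0.59 for nuclear tRNA. The corresponding ratios were -0.37, -0.76 and 0.02 for Y RNA and -0.12, -0.64 and -0.03 for 5S rRNA. The sum of the 22 mitochondrial tRNA windows moved by -0.40 (total), -0.11 (nuc) and 0.34 (cyto), with SDs of the log2 values within groups of 0.31, 0.18 and 0.18.

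Compared amino acid by amino acid, the mitochondrial tRNA had a higher knockdown log2 ratio than the summed nuclear tRNA rows of the same amino acid in 20 of 20 cases in cyto RNA, by 0.59 (glutamate) to 1.60 (serine) with a median of 0.97. In total RNA this held for 18 of 20, with a median difference of 0.70, glutamate and valine being the exceptions at -0.09 and -0.08. In nuc RNA it held for 14 of 20, with a median difference of 0.07. For serine in cyto RNA the mitochondrial ratio was 0.48 and the nuclear ratio -1.12, and for lysine 0.18 and -1.34. For threonine the values were 0.37 and -1.21. The mitochondrial serine counts were mostly those of MT-TS2, which shares reads with MT-TH. Histidine had 0.51 and -0.60, so the mitochondrial values of serine and histidine should be read as a pair. The difference of 2 ratios does not depend on the scale between libraries. The amino acids share libraries, so these counts are descriptions without a test.

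Shares of tRNA counts do not depend on the scaling between libraries. Mitochondrial tRNAs made up 10.9%, 11.7% and 7.55% of all tRNA counts in control_cyto and 17.7%, 17.98% and 16.3% in siSSB_cyto, with no overlap. In total RNA the shares were 10.8%, 12.6% and 8.35% (control) and 11.2%, 16.3% and 11.6% (siSSB), and in nuc 22.6%, 22.1% and 20.1% (control) and 23.7%, 28.3% and 22.2% (siSSB), and both pairs overlapped. With 3 libraries against 3, a two-sided exact permutation test cannot give a p below 0.1, which is the value for the cyto shares. The nuclear tRNA counts, the larger term of the share, were 849809, 676732 and 1359549 in control_cyto and 721976, 559959 and 683666 in siSSB_cyto. With 14 windows that do not overlap the cyto shares were 5.45% to 8.07% (control) and 11.6% to 13.1% (siSSB).

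By amino acid, the mitochondrial share of the tRNA counts in control_cyto was highest for phenylalanine, tryptophan, threonine and histidine. The MT-TF window held 72.5%, 71.0% and 54.5% of the phenylalanine tRNA counts in control_cyto and 74.5%, 76.2% and 80.9% in siSSB_cyto. That window overlaps the MT-RNR1 row, and the part of rRNA reads in these shares was not tested. MT-TT held 46.4%, 49.0% and 43.7% of the threonine counts in control_cyto and 70.0%, 77.6% and 68.1% in siSSB_cyto, with no overlap. MT-TP held 23.4%, 24.1% and 19.8% of the proline counts in control_cyto and 38.9%, 48.5% and 40.9% in siSSB_cyto, again without overlap. At the other end, the mean share in control_cyto was 0.30% for glycine and 0.32% for aspartate.

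**Figure D3:**
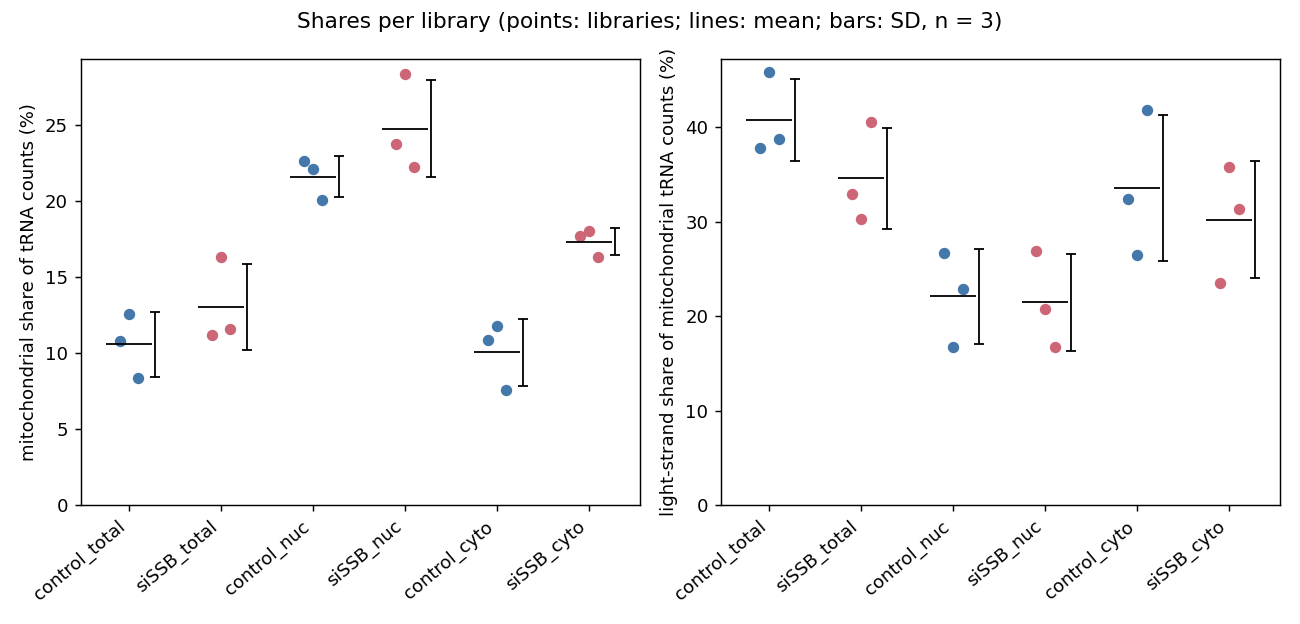
Left, mitochondrial share of all tRNA counts (%); right, light-strand share of mitochondrial tRNA counts (%), in each library of the 6 groups, with mean and SD (n = 3). On the left siSSB_cyto, at 16.3% to 17.98%, lies above control_cyto, at 7.55% to 11.7%; on the right control and siSSB overlap in each kind of RNA.

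Between the fractions of control cells, 11 of 22 members were called lower in nuclear than in cytoplasmic RNA on the TMM scale and 1 higher. By edgeR's quasi-likelihood test 12 of 22 were called in all, where 23.3% of 26774 features were. The lower ones (6 heavy-strand and 5 light-strand) stand beside 14.1% of all features, and MT-TV, the higher one, beside 9.21%. The median log2 fold change was -0.86, beside -0.27 over all features. Ranges were apart for 15 members. Without overlap 27.5% of all features were lower and 14.3% higher. These directions hold on the TMM scale. With library size alone or the snoRNA total as the scale all 22 were called lower, and with the nuclear tRNA total 15 were called higher and 0 lower. The median of all features moved with the scale, to -4.33, -6.11 and 1.71 in those 3 settings.

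Proline, threonine and phenylalanine tRNAs had the largest differences in control cells. MT-TP had levels of 13.3, 13.3 and 11.5 CPM per 100 nt in control_nuc and 55.5, 42.5 and 54.7 in control_cyto, a log2 fold change of -1.87 ± 0.29 (adjusted p = 3.94e-06, edgeR quasi-likelihood, n = 3 per group). MT-TT, its neighbour, had 7.67, 7.71 and 7.20 against 32.1, 25.8 and 29.5, a log2 fold change of -1.83 ± 0.29 (adjusted p = 6.54e-06). MT-TF had 6.07, 6.61 and 6.26 against 29.5, 22.2 and 14.4, a log2 fold change of -1.69 ± 0.31 (adjusted p = 7.01e-05). In each of the 3 the nuclear libraries were all below the cytoplasmic ones. The MT-TF window overlaps the MT-RNR1 row, which had a log2 fold change of -0.04 in control cells. The part of rRNA reads in the MT-TF value was not tested. MT-TN (asparagine), MT-TA, MT-TH, MT-TS2, MT-TE, MT-TQ, MT-TG and MT-TM were the other members called lower, from -1.64 to -0.95. Rows over nuclear copies of MT-TC, MT-TM, MT-TY and MT-TQ held large counts beside their own, as given above, and the part of those reads in the fraction values was not tested.

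In siSSB cells 19 of 22 members were called between the fractions, where 25.3% of 26274 features were. There were 18 called lower in nuc (11 heavy-strand and 7 light-strand), beside 14.5% of all features, and again MT-TV alone was higher, beside 10.8%. The median was -1.56, beside -0.19 over all features, and 21 ranges were apart. Without overlap 25.9% of all features were lower and 16.6% higher. The exceptions that were not called were MT-TL1 (-0.16), MT-TI (-0.76) and MT-TS1 (-0.41). With library size alone or the snoRNA total all 22 were called lower here too, and with the nuclear tRNA total 9 were called higher and 0 lower.

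MT-TT had levels of 5.72, 5.35 and 5.36 CPM per 100 nt in siSSB_nuc and 30.5, 44.6 and 39.1 in siSSB_cyto, a log2 fold change of -2.67 ± 0.31 (adjusted p = 9.32e-08, edgeR quasi-likelihood). MT-TP had 10.9, 8.82 and 9.50 against 49.3, 74.9 and 67.0, a log2 fold change of -2.59 ± 0.31 (adjusted p = 1.36e-07). MT-TH had 41.6, 42.5 and 58.2 against 263, 186 and 232, a log2 fold change of -2.15 ± 0.30 (adjusted p = 2.13e-06). Cytoplasmic libraries lay above nuclear ones throughout.

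The isoacceptors differed in their fraction values. MT-TL1 was not called in either cell state, at 0.17 and -0.16, while MT-TL2 was at -0.25 in control and -1.11 in siSSB cells (adjusted p = 0.00553, edgeR). MT-TS1 was not called at 0.03 and -0.41, while MT-TS2 was called at -1.36 and -2.13 (adjusted p = 0.00102 and 2.26e-06, edgeR). MT-TS2 shares reads with MT-TH, which had -1.39 and -2.15, and the part of these reads in the MT-TS2 values was not tested. The MT-TL1 window overlaps the MT-RNR2 row, which had 1.498 and 1.02, and the part of rRNA reads in the MT-TL1 values was not tested. The difference between isoacceptors was itself not tested.

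**Figure D4:**
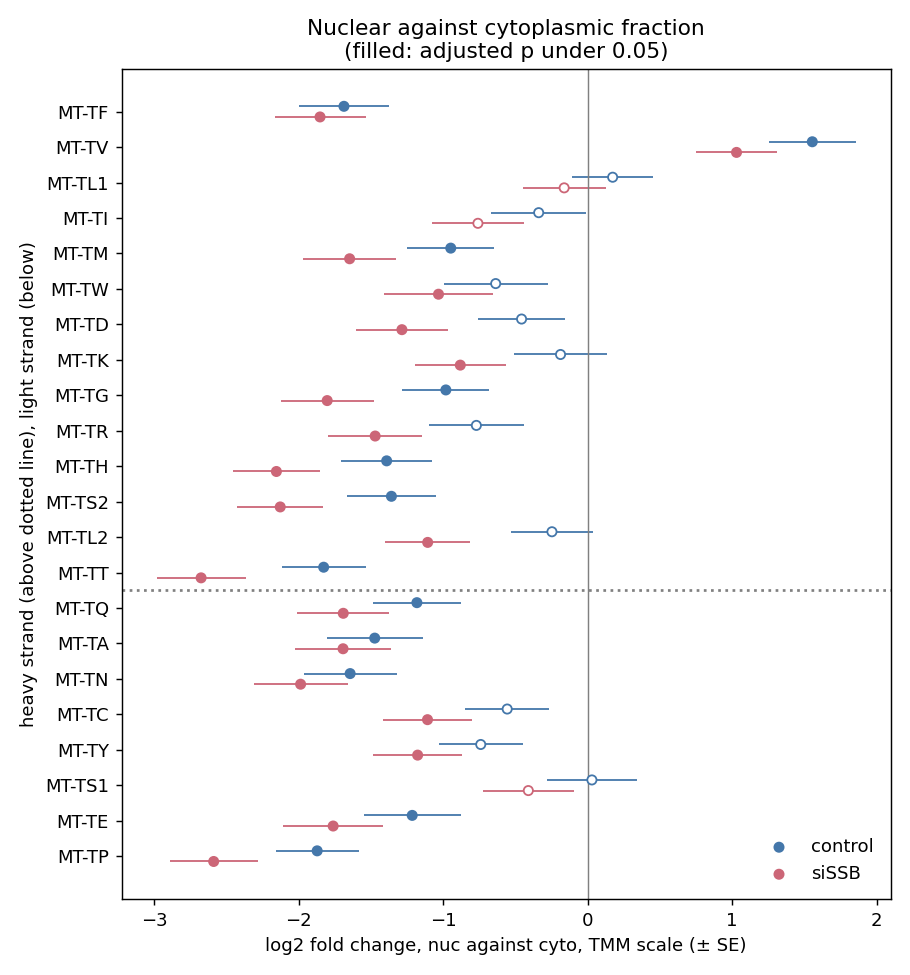
Log2 fold change of nuc against cyto RNA (± SE of the fit, n = 3 libraries per fraction, TMM scale) for each member, blue in control and red in siSSB cells, filled where the adjusted p was under 0.05. MT-TV is the single member called above 0, at 1.55 in control and 1.03 in siSSB cells, and MT-TT and MT-TP lie lowest.

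MT-TV was called higher in nuc RNA by a log2 fold change of 1.55 ± 0.30 in control cells (adjusted p = 0.000121, edgeR quasi-likelihood) and 1.03 ± 0.28 in siSSB cells (adjusted p = 0.00734). The call in siSSB cells was lost without siSSB_cyto replicate 1 (0.88, adjusted p = 0.0754), with the miRNA total as the scale (1.16, adjusted p = 0.102) and with no filter on low counts (0.65, adjusted p = 0.411). On the library size scale the value was -2.65 in control and -2.83 in siSSB cells, in both cases above the median of all features.

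The share of MT-TV among mitochondrial tRNA counts, which needs no scale between libraries, was 30.6%, 36.5% and 30.9% in control_nuc and 34.6%, 31.3% and 34.9% in siSSB_nuc. In cyto it was 6.996%, 7.61% and 6.11% (control) and 6.19%, 6.86% and 7.08% (siSSB), and in total RNA 18.8%, 12.2% and 8.60% (control) and 8.59%, 7.79% and 11.5% (siSSB). The nuclear shares were above all others, in 6 of 6 libraries.

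Of the rRNAs beside MT-TV, MT-RNR2 had similar fraction values and MT-RNR1 did not. The MT-TV window overlaps the rows of both. MT-RNR2 was higher in nuc by 1.498 (adjusted p = 0.000645, edgeR quasi-likelihood) in control and 1.02 (adjusted p = 0.0215) in siSSB cells, while MT-RNR1 had -0.04 and -0.33 and was not called. A row for the inner part of MT-RNR2 (chrM:1717-3153), which shares no base with the MT-TV window, had 1.55 (adjusted p = 0.000835) and 1.08 (adjusted p = 0.0256). MT-RNR2 counts per mitochondrial tRNA count were uneven among nuclear libraries, at 1.36, 1.94 and 4.94 in control_nuc and 1.54, 4.79 and 1.75 in siSSB_nuc, whereas the MT-TV shares of the same libraries ran only from 30.6% to 36.5%. The part of this unevenness in the MT-RNR2 values was not tested.

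Where the MT-TV reads end could be bounded from overlapping rows, a count added after the values were seen. A long noncoding RNA row that starts at chrM:1682, 11 nt past the start of MT-RNR2, runs beyond its end. If rows count every read that touches them, with the same use of strand, reads counted for the MT-RNR2 window (chrM:1646-3254) but not for this row touch positions 1646 to 1681, end before 1682 and belong to the MT-TV window. Their number was at least 6422, 5551 and 2899 in control_nuc, where the MT-TV counts were 6875, 5872 and 3691. In control_cyto it was at least 5125, 4797 and 2215 of 7241, 6841 and 6790.

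As a share of MT-TV counts this was at least 93.4%, 94.5% and 78.5% in control_nuc and 93.8%, 79.0% and 90.9% in siSSB_nuc. In cyto it was at least 70.8%, 70.1% and 32.6% (control) and 66.2%, 52.7% and 72.9% (siSSB). Under the same condition, the counts of the MT-TV window that could reach into MT-RNR2 beyond 11 nt were at most 321 to 1073 per nuclear library. If rows do count every touching read, with the same use of strand, most nuclear MT-TV counts were reads with their end between positions 1646 and 1681, while the gene ends at 1670. How far this depends on the length of the reads was not tested. The bound was higher in every nuclear than in every cytoplasmic library. Reads that touch the long noncoding row only past the MT-RNR2 window lower the bound. A row at chrM:3300-4285, past that window, held 1706, 1763 and 4168 counts in control_cyto and 411, 279 and 725 in control_nuc. The MT-TV counts outside the bound were 2116, 2044 and 4575 in control_cyto and 453, 321 and 792 in control_nuc. How many reads of that row also touch the MT-RNR2 window was not tested. Reads of the MT-TV window that end before position 1646, any from MT-RNR1 among them, fall outside the bound too. Their number was not tested. As the values are lower bounds, the true shares may be much closer. Control_cyto replicate 3 had the lowest bound and the highest count in the row at chrM:3300-4285. Whether the read ends differ between the fractions was not tested.

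**Figure D5:**
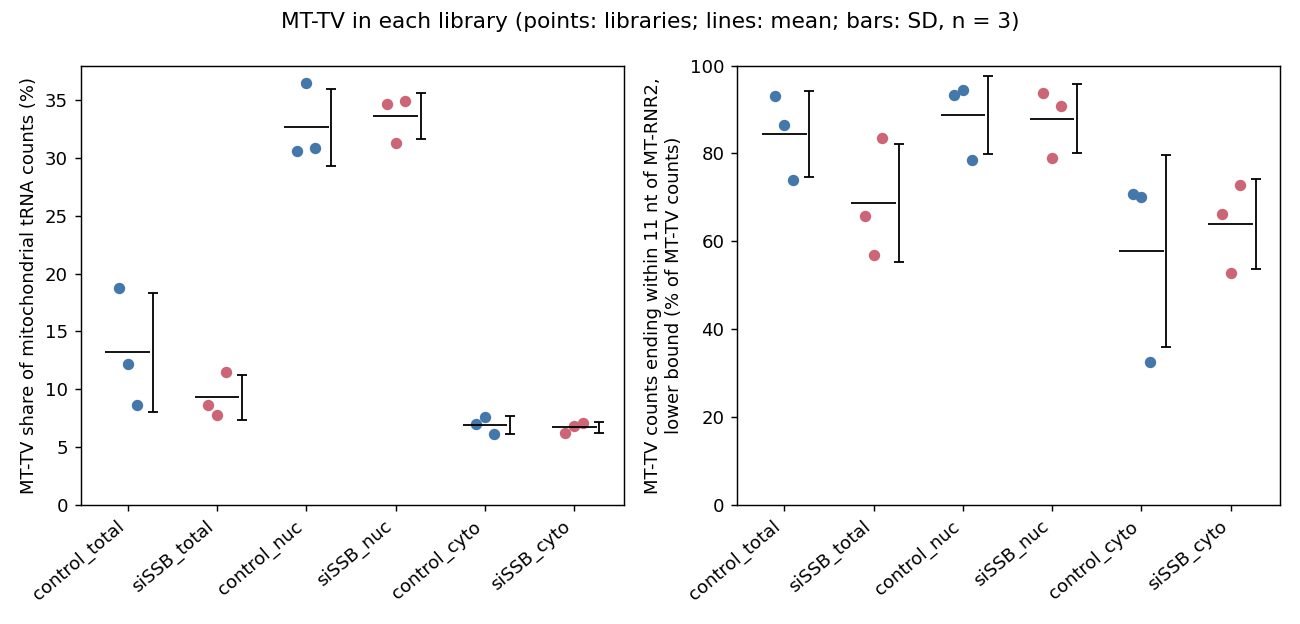
Left, MT-TV share of mitochondrial tRNA counts (%); right, lower bound of the share of MT-TV counts (%) whose reads end no more than 11 nt into MT-RNR2 if rows count every touching read, per library with mean and SD (n = 3). The nuclear libraries hold 30.6% to 36.5% on the left and at least 78.5% on the right, the cytoplasmic ones 6.11% to 7.61% and at least 32.6%. Reads past the MT-RNR2 window also lower the bound, so it does not compare read ends between the fractions.

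Of the 24 rows of the mitochondrial chromosome that are not tRNA, 3 were called higher in nuc in control cells, MT-RNR2 and the rows over it, which share reads, where 9.21% of all features were. There were 2 called lower, where 14.1% of all features were. In siSSB cells 3 were higher, where 10.8% of all features were, and 8 lower, where 14.5% were. The lowest was an antisense RNA row at chrM:15999-16153, at -1.90 (adjusted p = 4.2e-06, edgeR quasi-likelihood) and -2.63 (adjusted p = 1.4e-07). The other row called lower in control cells, at chrM:15973-16594, had -1.72 and -2.41. Both rows overlap the MT-TP gene (chrM:15956-16023), so their reads can be shared with MT-TP.

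Against nuclear tRNA of the same amino acid, MT-TV was also far off, with a nuc against cyto log2 ratio of 1.56 beside -2.27 for nuclear valine tRNA in control cells. For histidine the ratios were -1.35 and -4.57. Phenylalanine, asparagine and threonine were the amino acids for which the mitochondrial ratio was the lower one in control cells, at -1.62 beside -0.18, -1.67 beside -0.998 and -1.83 beside -1.43. In control cells the mitochondrial ratio was above the nuclear one for 17 of 20 amino acids and in siSSB cells for 11 of 20.

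The difference between the knockdown effects of the fractions was tested directly as an interaction. None of the 22 members passed (0 called, where 0.0133% of 37493 features were, 5 in all), 1 had an unadjusted p under 0.05, beside 4.9% of all features, and DESeq2 also called 0, with 6 members at an unadjusted p under 0.05. The value, the nuc knockdown effect minus the cyto one, was below 0 for all 22, from -0.84 to -0.15 with a median of -0.53, beside 0.01 over all features. MT-TT had -0.83 ± 0.41 (adjusted p = 0.958, edgeR quasi-likelihood) and MT-TL2 -0.84 ± 0.42 (adjusted p = 0.958), the smallest p of the members. The larger number of members called between fractions in siSSB cells than in control cells is thus not shown to differ. With library size alone 5 of 22 values were above 0, with the miRNA total 7 and with the snoRNA total 1.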

How the data were processed

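The authors deposited 1 table of raw counts per noncoding RNA feature for the 18 libraries, not normalized. Per the submitters' processing notes, reads were mapped to hg38 with Bowtie2 and counted with bedtools. The study's methods list versions of both tools without tying them to these libraries, and options and the use of strand are not given for them in the sources used here. The 22 members, lists and comparisons were chosen with earlier results of these data known.

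Counts were tested per comparison on its own 6 libraries (12 for the interaction) with edgeR 4.0.16 in R 4.3.3 (TMM, filterByExpr, quasi-likelihood F-test, Benjamini-Hochberg over all features tested, threshold 0.05), and all 22 members passed the filter in each. The fit was tested on simulated data. Levels are CPM per 100 nt of window on 1 TMM scale over 18 libraries. Values per library were given for the 4 highest and 3 lowest members and, per comparison, for the 3 largest called log2 fold changes without overlap or, where none was called, the 2 smallest p. MT-TV between fractions and MT-TA and MT-TC in total RNA were named after their values were seen. Nuclear tRNA rows are the 499 with a tRNA gene name. Nuclear copies were searched with BLAST+ 2.17.0, and gene ends came from GENCODE 44. Alternatives were other size factors, class totals as library size, no filter, DESeq2 1.42.0, a replicate block, identical rows taken once and leaving out each library. Counting error alone would allow a value of up to 3 counts where a count is 0. No member had such a count.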

Additional observations from a re-analysis of the deposited data

Results flagged for a closer look

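On the scale of each fraction's 6 libraries fitted alone, MT-TG, MT-TT and MT-TP had siSSB and control ranges that were apart in both fractions but in opposite directions. On the scale of the levels over all 18 libraries the cyto ranges of MT-TT and MT-TP overlapped. MT-TG had a log2 fold change of -0.33 in nuc and 0.32 in cyto RNA, MT-TT -0.30 and 0.37, and MT-TP -0.23 and 0.31. The difference was tested as an interaction (edgeR quasi-likelihood) and did not pass, with values of -0.80, -0.83 and -0.70 and an adjusted p of 0.958 for each. On the library size scale the nuclear value of MT-TG was 0.014. MT-TT and MT-TP share part of their windows and so part of their reads.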

How the results depend on the processing

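The knockdown counts of 0 called in nuc and cyto RNA, and of 0 for the interaction, held under all alternatives run. In total RNA the count of 0 became 7, all lower in siSSB, with the miRNA total as library size, 1 lower with no filter, and 1 higher with the snoRNA total or the nuclear tRNA total. Between fractions, the 12 calls in control cells became 22, all lower in nuc, with library size alone and with the snoRNA total. With the nuclear tRNA total they became 15, all higher in nuc. The 19 calls in siSSB cells became 22, all lower, with library size alone and with the snoRNA total. They became 13, all lower, with the miRNA total and 9, all higher, with the nuclear tRNA total. The summed log2 ratio moved most with the scale. With library size alone, the miRNA, the snoRNA and the nuclear tRNA total in turn it was 0.14, -0.94, 0.28 and 0.34 for the knockdown in total RNA, and 0.23, 0.10, 0.17 and 0.25 in nuc. In cyto it was 0.54, 0.73 and 0.93 with library size, snoRNA and nuclear tRNA. Between fractions it was -4.84, -1.005, -6.63 and 1.32 in control cells and -5.15, -1.14, -7.19 and 0.64 in siSSB cells, and for the interaction -0.31 and -0.13 with library size and miRNA. Non-overlapping windows, chosen after seeing the data, gave -1.09 between fractions in siSSB cells.

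Reversed values were MT-TG in the nuc knockdown (0.014 with library size, 0.033 with the nuclear tRNA total), MT-TV between fractions with library size and snoRNA total (-2.65 and -4.50 in control, -2.83 and -4.88 in siSSB cells), and MT-TP, MT-TT and MT-TF in control cells with the nuclear tRNA total (0.13, 0.17 and 0.30). By construction, these scales moved the median of all features too.

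Leaving out each library in turn, the count called ranged from 0 to 1 in total RNA (1 without control_total replicate 3), from 8 to 13 between fractions in control cells and from 14 to 19 in siSSB cells. The summed log2 ratio ranged from -0.64 (without control_total replicate 3) to -0.221 (without control_total replicate 1) for the knockdown in total RNA, from -0.302 (without control_nuc replicate 3) to -0.0488 (without control_nuc replicate 1) for the nuc knockdown, from -1.404 to -1.154 between fractions in siSSB cells and from -0.761 to -0.396 (without control_cyto replicate 3) for the interaction. The library titles do not say whether the replicate numbers pair the samples. Deviations of same-numbered libraries correlated from -0.243 to 0.0548, which does not settle it. With the replicate number as a block, 0, 0 and 0 members were called for the knockdown in total, nuc and cyto RNA, 15 and 19 between fractions in control and siSSB cells and 0 for the interaction.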
